A study of Caenorhabditis elegans with 30 samples.

Results

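The ttr genes of the nematode Caenorhabditis elegans encode a large family of transthyretin-like proteins, small proteins with a signal for secretion in most members and distantly related to vertebrate transthyretin, a carrier of thyroid hormone and retinol-binding protein in blood. The family expanded in nematodes, and for most of its members no function is established. The best known are TTR-52, a secreted protein that links phosphatidylserine on the surface of dying cells to the engulfment receptor CED-1, and TTR-33, which protects dopamine neurons from degeneration under oxidative stress. The members were chosen by name: protein-coding genes whose WormBase symbol is ttr followed by a number, leaving out ttr-16. There were 57 such genes among the 46690 gene rows that both count tables share.

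RNA with a poly(A) tail was taken from entire animals of the wild-type strain N2, fed on E. coli OP-50. The study asked how cold and lithium affect the time for which an odour memory lasts, and 30 libraries were sequenced. For the lithium experiment untrained worms spent a night on agar with 15 mM lithium chloride at 15 C, on the same agar at 20 C, on plain NGM agar at 15 C or on plain NGM agar at 20 C, with 3 libraries in each of the 4 groups and no stay on ice. In the ice experiment worms were either conditioned with the odorant butanone or naive, and were kept overnight at 15 C and then 2 hours at 20 C, overnight at 15 C, or at 20 C, with 3 libraries in each of the 6 groups. All worms of the ice experiment spent 2 hours on ice, so none of its groups is free of cold shock. The total count per library was 10111055 to 27794834 in the lithium experiment and 9873554 to 30054357 in the ice experiment. The 57 genes together took 0.142 to 0.515% of a library's counts in the first experiment and 0.108 to 1.33% in the second.

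The family was spread over all 6 chromosomes of the WBcel235 (ce11) assembly in the Ensembl annotation. Chromosome V held 22 members, X held 12, III and IV held 9 each, I held 3 and II held 2. For 27 members another member lay within 5000 bases with no other protein-coding gene between them. The proteins were 89 to 406 residues long with a median of 143, against a median of 329 over all protein-coding genes. The longest was that of ttr-14 and the shortest that of ttr-57. Exon bases were shared with another protein-coding gene in 16 members, in 12 of them on the opposite strand. The largest such overlap was that of ttr-44 with R11G10.3, 167 bases. The strand setting of the counting is not given in the sources used here, so reads of such a gene and its partner may not be told apart.

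Expression was concentrated in a few members. As CPM (the share of a library's counts, scaled by TMM, a factor that corrects for RNA composition) per kilobase of exon, averaged over the 12 libraries of the lithium experiment, ttr-2 stood at 1109, ttr-15 at 902, ttr-51 at 846, ttr-46 at 333 and ttr-45 at 265. These 5 genes held 66.6% of the summed CPM of the family there. Over the 18 libraries of the ice experiment ttr-15 stood at 2774 CPM per kilobase, followed by ttr-42 at 311, ttr-34 at 284, ttr-25 at 210 and ttr-2 at 202. ttr-15 alone held 54.5% of the family's summed CPM on ice, against 19.2% for the leading member of the lithium experiment. The library kits of the 2 experiments differed, so levels were not tested between them. ttr-2 lies on chromosome III, bases 9927769 to 9929004, plus strand. ttr-15 is on the same chromosome and strand at bases 10337847 to 10339440.

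At the other end, ttr-19 had 0 counts in both experiments. A count of 0 allows a level of up to 0.0154 CPM over all lithium-experiment libraries and 0.00786 CPM over all ice-experiment libraries, at 3 counts of 194177598 and 381583982, for counting error only. ttr-22 and ttr-58 also had 0 counts in the lithium experiment. A filter on low counts left 41 of the 57 members tested in the lithium experiment. The 16 members that it removed reached at most 1.63 CPM in any library there, and ttr-52 was among them. On ice 50 members were tested for temperature and 49 for training. There were 7 members tested in neither the lithium fit nor the temperature fit on ice.

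**Figure D1:**
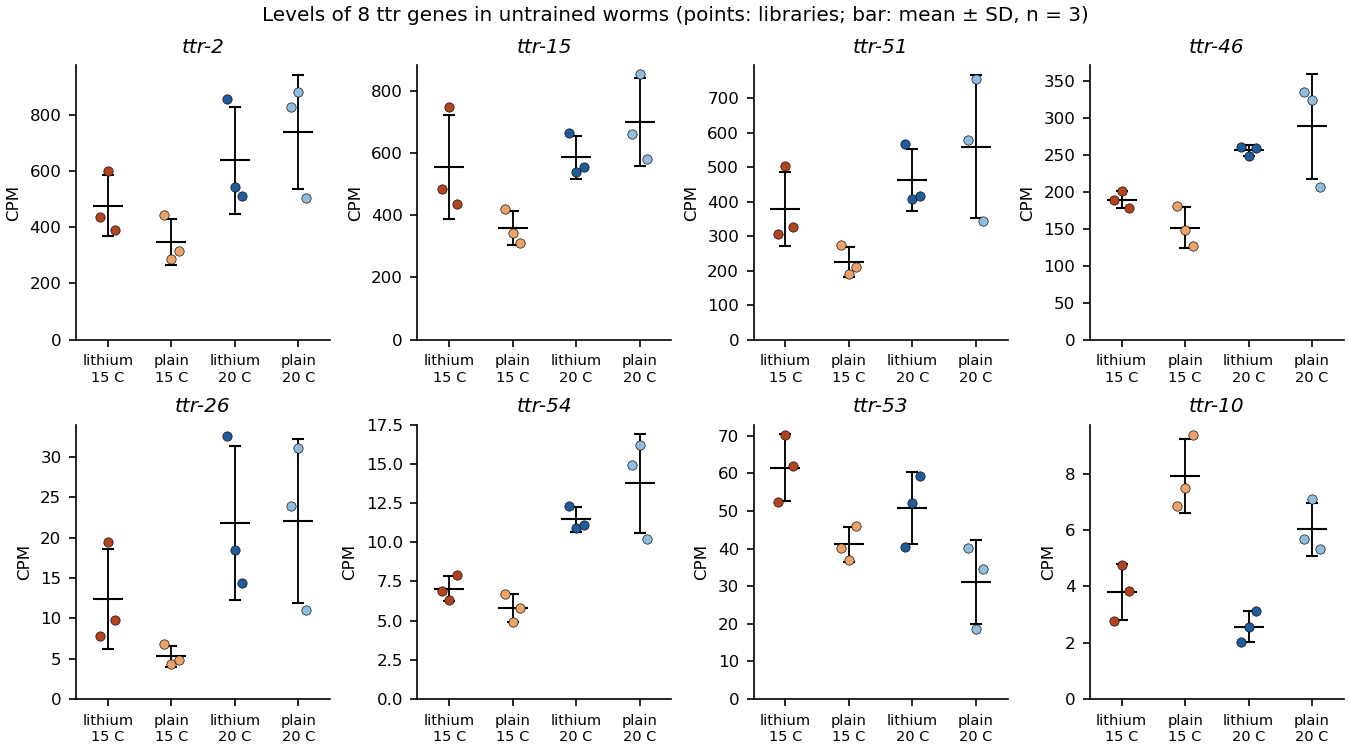
CPM of 8 ttr genes in the lithium experiment, by group. Points are libraries and bars the mean ± SD (n = 3). ttr-2, ttr-15, ttr-51, ttr-46, ttr-26 and ttr-54 were lower on plain agar at 15 C than at 20 C in every library, while ttr-53 and ttr-10 were not.

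Worms kept overnight on plain agar at 15 C were compared with worms on plain agar at 20 C. Of the 41 members tested, 20 fell at 15 C and 0 rose, by edgeR's quasi-likelihood test with Benjamini-Hochberg adjustment over all 12392 genes tested and a threshold of 0.05. That is 48.8% of the tested members, where 7.77% of all genes tested fell, 2.19% rose and 9.97% changed in either direction. Of the 41 members, 37 had a negative log2 fold change and 4 a positive one. Their median was -0.93, against -0.07 over all genes. In 31 of the 41 every library at 15 C was below every library at 20 C, where 23.2% of all genes tested were lower in the same way. In 0 members every library at 15 C was above, against 22.6% of all genes.

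The 3 members of highest level fell together. ttr-2 had 442, 287 and 315 CPM at 15 C, against 828, 882 and 505 CPM at 20 C. The groups did not overlap (log2 fold change -1.08 ± 0.27 SE, adjusted p = 0.0374, edgeR, n = 3 each). ttr-15 had 419, 344 and 311 CPM at 15 C, against 662, 854 and 579 CPM at 20 C, again with a gap between the groups (-0.96 ± 0.22, adjusted p = 0.0327). ttr-51 had 274, 191 and 210 CPM at 15 C, against 578, 757 and 345 CPM at 20 C (-1.31 ± 0.285, adjusted p = 0.0295). It shares 45 exon bases with JC8.7 on the opposite strand. Its neighbour ttr-45, 1913 bases away on chromosome IV, had 136, 90.4 and 91.0 CPM at 15 C, against 247, 356 and 170 CPM at 20 C (-1.28 ± 0.29, adjusted p = 0.0302). ttr-46 averaged 152 ± 27.2 CPM at 15 C and 288 ± 71.0 CPM at 20 C (SD, n = 3 each; -0.93 ± 0.19, adjusted p = 0.0276).

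Members of medium level fell by larger or similar amounts. ttr-26 had 6.76, 4.32 and 4.83 CPM at 15 C, against 23.9, 31.1 and 11.02 CPM at 20 C (log2 fold change -2.04 ± 0.455, adjusted p = 0.0302, edgeR). It stands on chromosome V, bases 18558758 to 18560288, minus strand, next to ttr-25 and ttr-24, which fell by 0.99 and 0.96 on the log2 scale. ttr-37 had 12.6, 8.74 and 8.52 CPM at 15 C, against 21.6, 43.0 and 17.2 CPM at 20 C (-1.45 ± 0.40, adjusted p = 0.0462). Without replicate 2 of plain agar at 20 C, its log2 fold change was -0.96. ttr-42 averaged 46.4 ± 8.35 CPM at 15 C and 106 ± 32.7 CPM at 20 C, and ttr-32 7.64 ± 2.88 CPM at 15 C and 16.99 ± 5.33 CPM at 20 C (SD, n = 3 each). They share 52 and 49 exon bases with a gene on the opposite strand.

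The other members that fell at 15 C were ttr-23, ttr-40, ttr-6, ttr-59, ttr-17, ttr-34, ttr-48 and ttr-41. They had log2 fold changes of -0.65 for ttr-41 to -3.48 for ttr-23, and all of them, like ttr-24 and ttr-25, were named after their values were seen. ttr-23 was a gene of low and scattered level: it had 0.625, 0.206 and 0.488 CPM at 15 C, against 2.40, 12.4 and 1.06 CPM at 20 C. Its log2 fold change without replicate 2 of plain agar at 20 C was -1.87. ttr-33 had 3.07, 1.44 and 2.44 CPM at 15 C, against 3.33, 6.81 and 5.94 CPM at 20 C. These groups did not overlap, but the difference missed the threshold (-1.19 ± 0.36, adjusted p = 0.0532, edgeR). ttr-52 was too low to be tested.

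The genes that fell stood both alone and beside other members. Of the 18 tested members with another member within 5000 bases 10 fell, and of the 23 without one 10 fell, with median log2 fold changes of -1.04 and -0.84. One adjacent pair had opposite signs. ttr-53 and ttr-54 lie 1266 bases apart on the plus strand of chromosome IV. ttr-54 had 6.70, 4.94 and 5.81 CPM at 15 C, against 14.9, 16.2 and 10.2 CPM at 20 C (log2 fold change -1.24 ± 0.23, adjusted p = 0.0265, edgeR). ttr-53 had 40.3, 36.9 and 46.1 CPM at 15 C, against 40.1, 18.7 and 34.7 CPM at 20 C, with overlapping groups, and its log2 fold change of 0.40 was not called. The ratio of ttr-53 to ttr-54 was 6.01, 7.48 and 7.93 on plain agar at 15 C, against 2.69, 1.16 and 3.40 at 20 C. On lithium agar it was 7.59, 11.1 and 7.85 at 15 C, against 3.28, 4.78 and 5.35 at 20 C. In both media every library at 15 C had the higher ratio. The pair was picked after its values were seen, so no test is given.

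Markers of several tissues differed between the temperature groups on plain agar. At 15 C all 10 neuron markers had negative log2 fold changes (median -0.62), as did all 8 of body wall muscle (-0.52). So did the tested markers of the pharynx (5, -1.60) and of coelomocytes (3, -0.64). Negative were also 7 of 9 tested for the intestine (-0.355), 3 of 4 for glia (-1.17) and 3 of 6 for seam and hypodermis (-0.28). All 11 germline markers were positive (0.59). The summed level of 11 germline markers was 9160 to 9260 CPM on plain agar at 15 C, against 3540 to 7850 CPM at 20 C, and that of 8 moulting markers was 50.2 to 164 CPM at 15 C, against 115 to 749 CPM at 20 C. The germline and moulting lists each had 0 genes at 0 over all 12 libraries of the experiment. Replicate 2 of plain agar at 20 C held both the lowest germline sum, 3540 CPM, and the highest moulting sum, 749 CPM. In whole worms, fewer cells of a type and less RNA per cell cannot be told apart. The part of these markers in the result was not tested. Without replicate 2 of plain agar at 20 C 0 members were called, as without replicate 2 or 3 of plain agar at 15 C. Without replicate 1 of plain agar at 15 C 5 were called, and 0 with only the 2 groups compared in the fit. Over all genes 69 were called without replicate 2 of plain agar at 20 C and 0 without replicate 2 or 3 of plain agar at 15 C. Without replicate 1 of plain agar at 15 C 199 genes were called, and with only the 2 groups 0, against 1235 in the main fit. The median log2 fold change of the members without replicate 2 of plain agar at 20 C was -0.74, with 35 of 41 members negative.

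**Figure D2:**
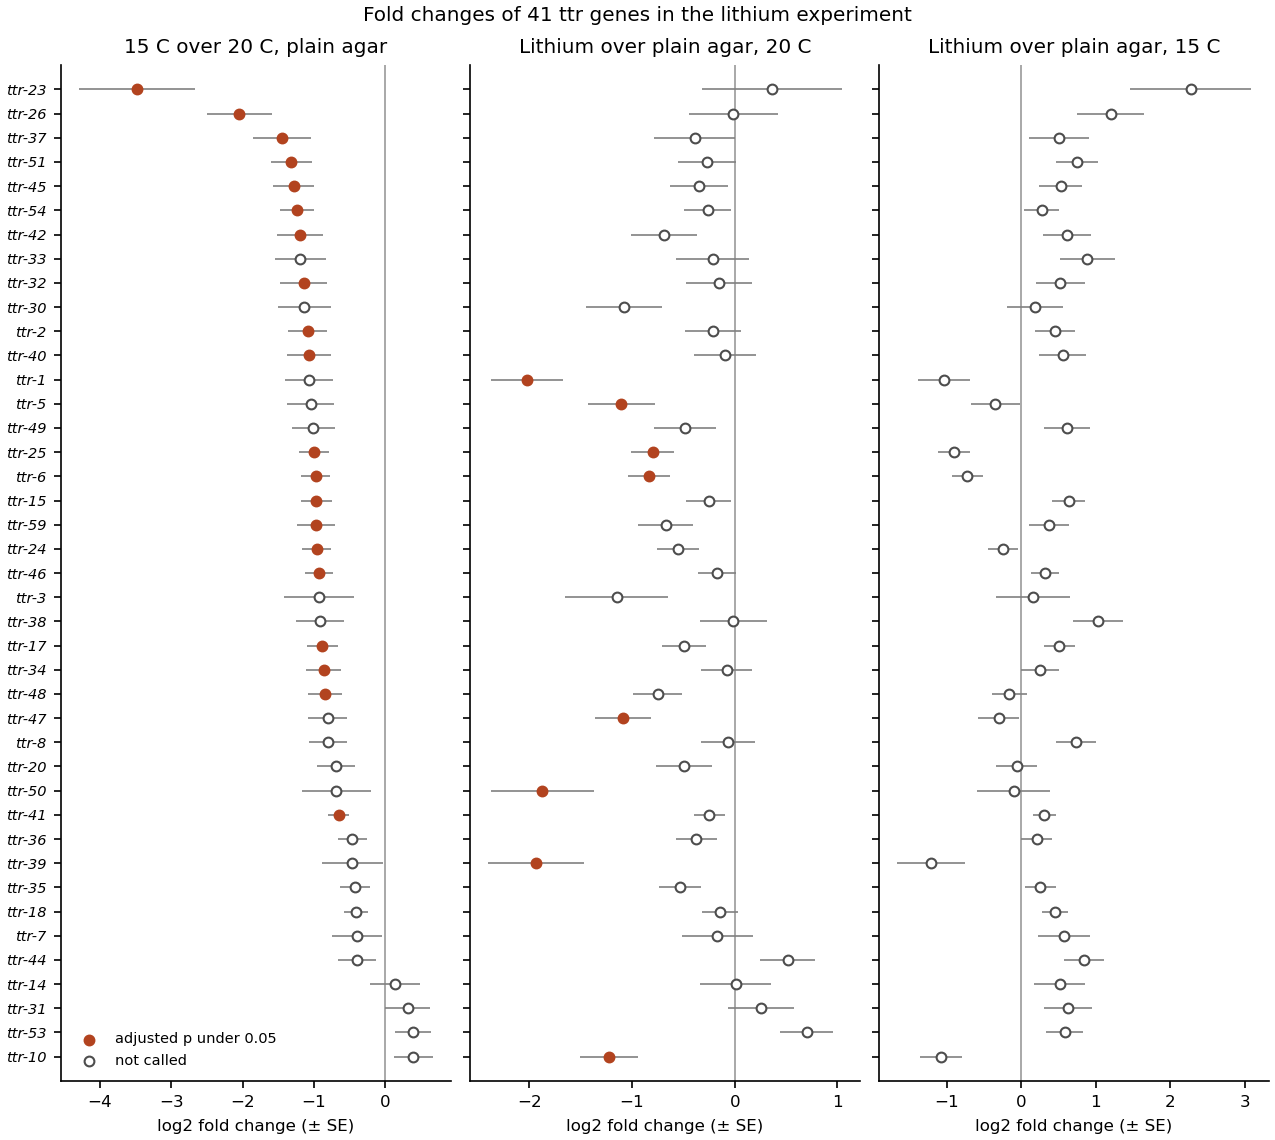
Log2 fold changes (± SE) of the 41 ttr genes tested in the lithium experiment, for 15 C over 20 C on plain agar and for lithium over plain agar at 20 C and at 15 C. Filled points are called by edgeR. The 20 calls in the first panel and the 8 in the second are all below 0, and the third panel has 0 calls, with 30 of 41 points above 0.

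Worms on lithium agar at 20 C were compared with worms on plain agar at 20 C. Of the 41 members tested 8 fell with lithium and 0 rose, 19.5% of those tested, where 6.33% of all genes tested fell, 5.91% rose and 12.2% changed in either direction (edgeR, adjusted p). Of the 41 members, 36 had negative and 5 positive log2 fold changes, with a median of -0.35, against -0.07 over all genes. In 13 members every lithium library was below every plain library, where 15.1% of all genes tested were lower in that way. In 1 member, ttr-53, every lithium library was above, where 18.4% of all genes were. The comparison shares its plain-agar libraries at 20 C with the temperature comparison above.

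ttr-6 had 99.1, 74.5 and 82.2 CPM with lithium, against 144, 192 and 121 CPM on plain agar at 20 C. The groups did not overlap (log2 fold change -0.84 ± 0.20 SE, adjusted p = 0.029, edgeR, n = 3 each). ttr-47 had 48.5, 43.5 and 52 CPM with lithium, against 111, 121.9 and 73.7 CPM on plain agar (-1.09 ± 0.275, adjusted p = 0.0321). ttr-25 had 35.7, 25.3 and 27.5 CPM with lithium, against 52.7, 56.3 and 45.1 CPM on plain agar (-0.80 ± 0.21, adjusted p = 0.0354). Every lithium library was thus below every plain library for these genes. ttr-5 averaged 13.9 ± 3.58 CPM with lithium and 29.8 ± 10.8 CPM on plain agar (SD, n = 3 each; -1.10 ± 0.33, adjusted p = 0.0471).

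ttr-50 had 17.7, 17.7 and 10.7 CPM with lithium, against 42.7, 101 and 24.7 CPM on plain agar at 20 C (log2 fold change -1.87 ± 0.50, adjusted p = 0.0364, edgeR). The highest value is that of replicate 2 of plain agar, and without this library the log2 fold change was -1.13. ttr-50 and ttr-47 share 51 and 52 exon bases with genes on the opposite strand. The remaining calls were at low levels and were named after their values were seen. ttr-1 had 3.65, 1.93 and 1.71 CPM with lithium, against 10.27, 12.6 and 6.72 CPM on plain agar (-2.02 ± 0.35, adjusted p = 0.0179). ttr-10 had 2.02, 2.57 and 3.13 CPM with lithium, against 5.68, 7.09 and 5.32 CPM on plain agar (-1.22 ± 0.29, adjusted p = 0.0272). ttr-39 averaged 0.492 ± 0.112 CPM with lithium and 1.91 ± 1.05 CPM on plain agar (SD, n = 3 each; adjusted p = 0.029). All 3 had groups that did not overlap.

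None of the 5 members of highest level was called with lithium at 20 C. ttr-2 averaged 638 ± 191 CPM with lithium and 738 ± 204 CPM on plain agar (SD, n = 3 each), ttr-15 586 ± 69.4 CPM with lithium and 698.3 ± 141 CPM on plain agar, and ttr-51 464 ± 90.01 CPM with lithium and 560 ± 206 CPM on plain agar. Their log2 fold changes were -0.21, -0.25 and -0.27, and the libraries of the groups overlapped for all 3. ttr-45 and ttr-46 stood at -0.35 and -0.17. ttr-33 had 4.42, 4.64 and 4.77 CPM with lithium, against 3.33, 6.81 and 5.94 CPM on plain agar, and the lithium libraries lay within the range of the plain ones (-0.22, adjusted p = 0.694, edgeR). ttr-53 had 40.5, 52.2 and 59.4 CPM with lithium, against 40.1, 18.7 and 34.7 CPM on plain agar, a difference that was not called (0.70, adjusted p = 0.0812).

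Germline markers summed to 11000 to 12400 CPM with lithium at 20 C, against 3540 to 7850 CPM on plain agar at 20 C, and moulting markers to 45.9 to 83.2 CPM with lithium, against 115 to 749 CPM on plain agar. Their part in the result was not tested. The number of members called was 2 without replicate 2 of plain agar at 20 C, 1 without replicate 1 of lithium at 20 C, and 0 without replicate 2 or 3 of lithium at 20 C. It was also 0 with only the 2 groups compared in the fit. Over all genes 422 were called without replicate 2 of plain agar at 20 C and 32 without replicate 1 of lithium at 20 C. Without replicate 2 or 3 of lithium at 20 C 5 and 43 genes were called, and with only the 2 groups 0, against 1516 in the main fit.

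At 15 C lithium gave 0 calls among the 41 members, where 0.387% of all genes tested were called (edgeR). At an unadjusted p under 0.05 there were 16 members and 2029 genes, and the lowest adjusted p of a member was 0.102. The signs were mostly positive, in 30 of the 41, with a median log2 fold change of 0.45, against 0.07 over all genes. In 14 members every lithium library was above every plain library, where 17.8% of all genes were, and in 5 members every lithium library was below, where 13.3% of all genes were. ttr-15 had 485, 747 and 435 CPM with lithium, against 419, 344 and 311 CPM on plain agar at 15 C (0.63 ± 0.22, adjusted p = 0.207). ttr-51 had 306, 502 and 327 CPM with lithium, against 274, 191 and 210 CPM on plain agar (0.75 ± 0.28, adjusted p = 0.226). Both had lithium libraries above all plain libraries and neither was called. ttr-33 averaged 4.38 ± 1.28 CPM with lithium and 2.32 ± 0.821 CPM on plain agar (SD, n = 3 each; 0.89, adjusted p = 0.259). ttr-2, ttr-45 and ttr-46 had log2 fold changes of 0.45, 0.53 and 0.32, none of them called. Germline markers summed to 8500 to 9980 CPM with lithium at 15 C, against 9160 to 9260 CPM on plain agar at 15 C, and moulting markers to 28.2 to 40.4 CPM with lithium, against 50.2 to 164 CPM on plain agar. The part of these markers was not tested.

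The 8 members that fell with lithium at 20 C all had negative log2 fold changes with lithium at 15 C, and 30 of the 33 other tested members had positive ones. The lithium comparisons at the 2 temperatures share no library. Over all genes, 88.3% of the 784 that fell with lithium at 20 C were also negative at 15 C, and 40.7% of the other genes tested were. The 5 members whose lithium libraries were all below the plain ones at 15 C were ttr-1, ttr-6, ttr-10, ttr-25 and ttr-39, all among the 8. ttr-25 had 15.6, 11.3 and 14.4 CPM with lithium, against 32.02, 20.7 and 24.6 CPM on plain agar at 15 C (-0.90 ± 0.215, adjusted p = 0.102, edgeR). ttr-10 had 2.77, 4.75 and 3.85 CPM with lithium, against 6.87, 7.51 and 9.39 CPM on plain agar at 15 C (-1.08 ± 0.28, adjusted p = 0.122). By DESeq2 3 of 42 members with an adjusted p were called at 15 C, where 3.18% of all such genes were: ttr-25 (adjusted p = 0.00619), ttr-10 (0.00583) and ttr-6. The level of ttr-10 was thus lower with lithium than on plain agar in every library at each temperature. The same held for ttr-1, ttr-6, ttr-25 and ttr-39.

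**Figure D3:**
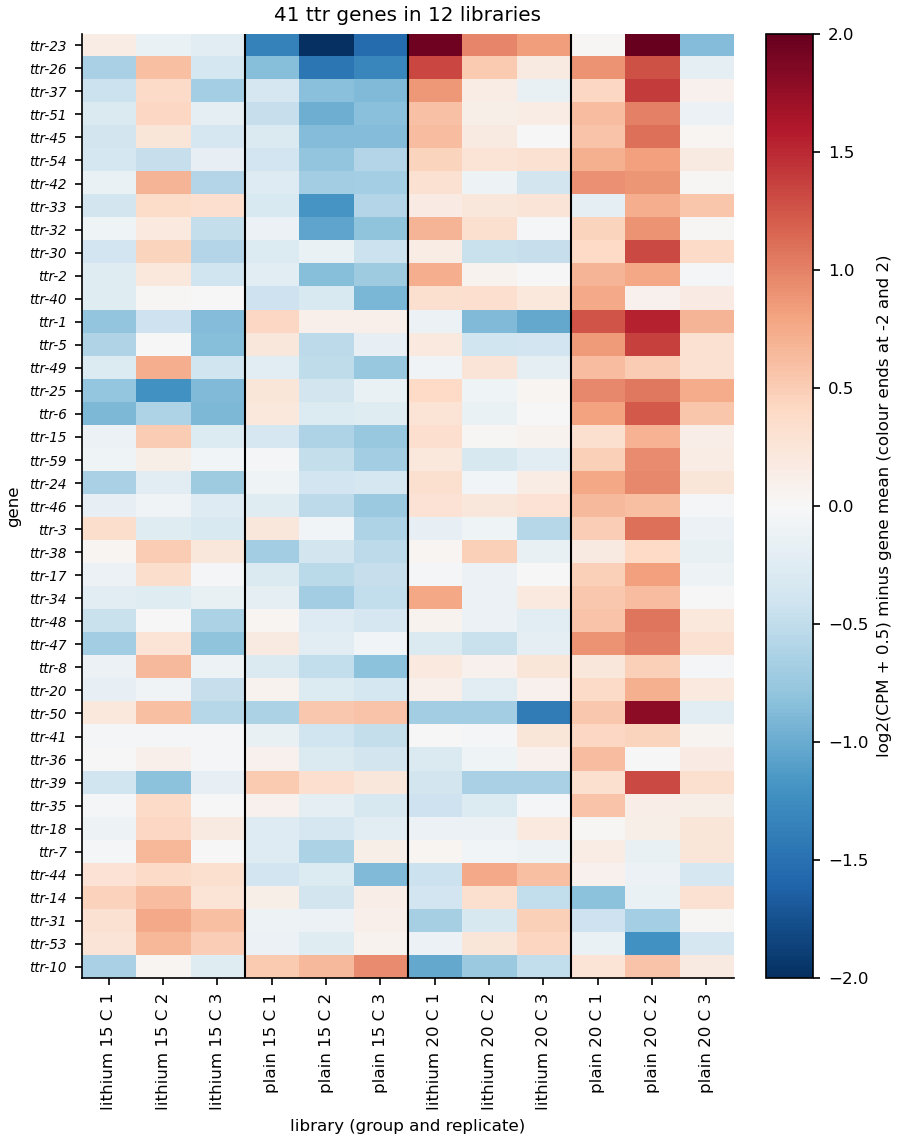
Level of the 41 tested ttr genes (rows, in the order of the change at 15 C on plain agar) in the 12 libraries of the lithium experiment (columns), as log2(CPM + 0.5) minus the gene's mean, with colours ending at 2 on either side. Plain agar at 15 C is low and plain agar at 20 C high for most genes. Replicate 2 of plain agar at 20 C stands highest for many genes, among them ttr-2, ttr-15, ttr-51, ttr-45, ttr-23 and ttr-37. The family's CPM summed to 4767 in that library, against 4005 and 2806 in replicates 1 and 3 of its group.

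The difference between the lithium effects at 15 C and at 20 C was tested as an interaction, on the same libraries as above. It was positive in 39 of the 41 members, with a median of 0.74 on the log2 scale, against 0.13 over all genes. Of the members 0 were called, as were 0 of all genes tested (0%), with a lowest member adjusted p of 0.481 (edgeR). At an unadjusted p under 0.05 there were 14 members and 1261 genes, and DESeq2 called 0 members. The members with the lowest p were ttr-17 (1.00 ± 0.30) and ttr-42 (1.30 ± 0.455). The lithium effect on ttr-17 was 0.51 at 15 C and -0.49 at 20 C, and neither was called. ttr-2, ttr-15, ttr-51, ttr-45, ttr-46 and ttr-33 had interactions of 0.66, 0.89, 1.02, 0.88, 0.49 and 1.10, with adjusted p of 0.481 to 0.512.

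On lithium agar, worms at 15 C were also compared with worms at 20 C. Of the 41 members 0 were called, as were 0% of all genes tested (edgeR), with 18 positive and 23 negative log2 fold changes and a median of -0.08. With no adjustment 7 members and 1445 genes had p under 0.05, and DESeq2 called 2 of 42 members with an adjusted p, ttr-25 and ttr-6, where 0.68% of all such genes were called. ttr-25 had 15.6, 11.3 and 14.4 CPM at 15 C, against 35.7, 25.3 and 27.5 CPM at 20 C. The groups did not overlap (-1.09 ± 0.22, adjusted p = 0.177, edgeR, and 0.00148 by DESeq2). ttr-6 had 43.6, 53.5 and 43.6 CPM at 15 C, against 99.1, 74.5 and 82.2 CPM at 20 C, also with a gap, and its adjusted p was 0.019 by DESeq2. ttr-25 and ttr-6 were thus lower at 15 C in every library on either agar. So were ttr-23, ttr-24, ttr-34, ttr-40, ttr-46 and ttr-54, listed after their values were seen. In 8 members every library at 15 C was below every library at 20 C, where 10.5% of all genes were, and in 1, ttr-50, every library was above, where 9.45% were. ttr-54 was at 6.90, 6.34 and 7.88 CPM at 15 C, against 12.3, 10.9 and 11.1 CPM at 20 C. ttr-33 averaged 4.38 ± 1.28 CPM at 15 C and 4.61 ± 0.174 CPM at 20 C (SD, n = 3 each), with overlapping groups.

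Genes of related pathways were read from lists of the same comparisons. Of 16 genes for the engulfment of dying cells, the process in which TTR-52 acts, 2 rose and 1 fell with lithium at 20 C (edgeR, adjusted p), where 5.91% of all genes tested rose and 6.33% fell. Those that rose were ced-2, an adaptor of the engulfment signal (0.69), and psr-1, a phosphatidylserine receptor (0.82), and the one that fell was ina-1, an integrin subunit (-1.12). At 15 C on plain agar, where 7.77% of all genes tested fell, 2 of the 16 fell and 0 rose: nrf-5, a secreted lipid-binding protein that acts with TTR-52 (-1.12), and scrm-1, a phospholipid scramblase (-0.75). Of 12 genes of secreted or extracellular lipid-binding families 7 fell and 0 rose at 15 C on plain agar, among them far-7 (-3.55), far-6 (-1.41) and lbp-2 (-0.96), which encode fatty acid binding proteins. The share of all genes that fell there was 7.77%. Without replicate 2 or 3 of plain agar at 15 C, without replicate 2 of plain agar at 20 C, and with only the 2 groups compared in the fit, 0 genes of either list were called at 15 C on plain agar, and without replicate 1 of plain agar at 15 C 1 lipid-binding gene was. Of these 12 genes 3 fell with lithium at 20 C: lbp-3 (-1.39), far-1 (-1.06) and lbp-2 (-1.01). With lithium at 20 C 0 genes of either list were called without replicate 2 or 3 of lithium or in the 2-group fit. Without replicate 1 of lithium, or replicate 2 of plain agar, 0 engulfment genes and 1 lipid-binding gene were called, and without replicate 3 of plain agar 1 engulfment gene was. The fits of these lists without a library or with 2 groups were chosen after the data were seen. Of 8 genes for the oxidative stress of dopamine neurons, the setting in which TTR-33 acts, 6 were tested with lithium at 20 C. Of the 6 tested genes 5 had positive log2 fold changes, with 0 of them called, and the median of the 6 was 0.31. The other, sod-3, a mitochondrial superoxide dismutase, fell (-2.50). The calls of this list were not counted in the fits with a library left out. In the other comparisons of either experiment 0 genes of these lists were called.

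On ice the replicate letters of 1 group differed widely. For the temperature comparisons the counts of a letter's conditioned and naive libraries were added up. The median ratio between the highest and lowest letter of a group was 2.99 in worms moved back to 20 C, 3.14 at 15 C and 3.14 at 20 C. Letter H was the highest of its group in 38 of 50 members in worms moved back to 20 C, where it was the highest for 43.4% of all genes. Letter B was the highest for 33 and letter G the lowest for 41 of 50 members at 15 C, where the shares of all genes were 41.7% and 41.4%. Letter E was the highest for 41 of 50 at 20 C, where it was for 43.0% of all genes. The family's CPM summed to 1550, 1300 and 3463 for letters C, D and H of worms moved back to 20 C, to 4317, 1077 and 2333 for letters B, G and H at 15 C, and to 2320, 9533 and 1569 for letters A, E and F at 20 C. The sums of germline markers, averaged over a letter's libraries, were 10200, 9040 and 2460 CPM for C, D and H, 4180, 11800 and 4030 CPM for B, G and H, and 13400, 7680 and 7960 CPM for A, E and F. Letter H of the worms moved back, and letters B and H at 15 C, thus had the lower germline sums and the higher family sums of their groups. At 20 C the order differed, and the part of the markers in these levels was not tested.

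**Figure D4:**
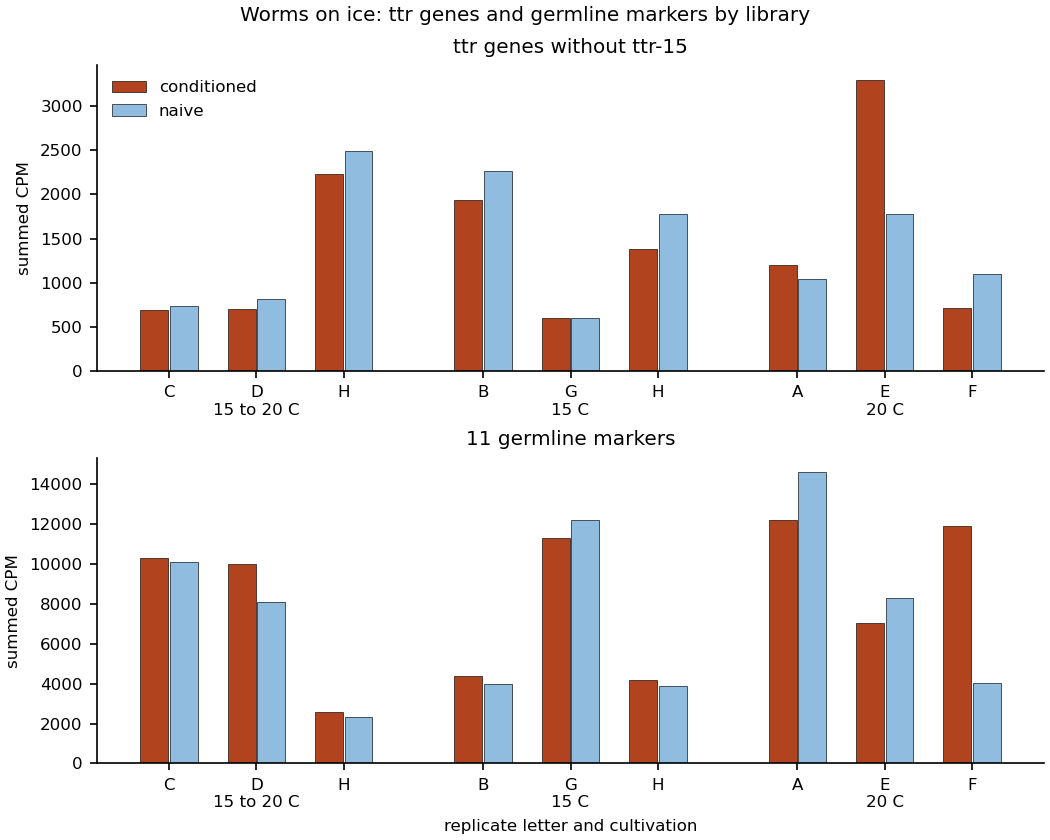
Summed CPM of the ttr genes other than ttr-15 (top) and of 11 germline markers (bottom) in each library on ice, by cultivation and replicate letter, conditioned beside naive. The naive and conditioned libraries of a letter stand close together for most letters, while letters of 1 group differ severalfold. In letter F at 20 C the germline sum was 11900 CPM in conditioned and 4020 CPM in naive worms.

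ttr-15 had the largest difference in CPM between libraries of the members on ice. It had 803, 456 and 1282 CPM in conditioned worms moved back to 20 C (letters C, D and H), 2073, 412 and 711 CPM in conditioned worms at 15 C (B, G and H), and 1449, 10470 and 479 CPM in conditioned worms at 20 C (A, E and F). In naive worms it had 834, 525 and 1279 CPM, 2286, 402 and 889 CPM, and 1350, 3980 and 736 CPM for the same letters. Both libraries of letter E at 20 C stood above all the others. They also had the lowest total counts of the ice experiment, 9873554 in conditioned and 10334483 in naive worms. R09H10.3, 1 of the 2 genes that encode transthyretin-related hydrolases and no ttr gene by name, had its highest levels in the same libraries: 720 CPM in conditioned and 320 CPM in naive worms of letter E, against 47.2 to 169 CPM in the 16 other libraries. ttr-42 had 776 CPM in conditioned and 279 CPM in naive worms of letter E, and both were above its other libraries. The 8 body wall muscle markers summed to 1060 CPM in conditioned and 940 CPM in naive worms of letter E, the lowest sums of the 18 libraries. The sums of seam and hypodermis markers (338 CPM in conditioned, 294 CPM in naive) and touch neuron markers (18.7 and 18.3 CPM) were also lowest there. The same held for pharynx, glia and coelomocyte markers, but not for those of germline, intestine, neuron or moulting.

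Worms kept at 15 C were compared with worms kept at 20 C, after ice. Of the 50 members tested 0 were called, as were 0% of all 15412 genes (edgeR). The members had 26 positive and 24 negative log2 fold changes, with a median of 0.09, against 0.14 over all genes. At an unadjusted p under 0.05 there were 6 members and 1945 genes, and DESeq2 called 1 of 50 members, ttr-21, where 1.19% of all genes with an adjusted p were called. In 4 members, ttr-9, ttr-21, ttr-27 and ttr-39, every sum at 15 C was above every sum at 20 C, where 7.86% of all genes were, and in 1 member, ttr-38, every sum was below, where 2.47% were. The lowest p belonged to ttr-21 and ttr-39. ttr-21 averaged 8.89 ± 8.03 CPM at 15 C and 1.53 ± 0.306 CPM at 20 C (SD, n = 3 letters each), with groups that did not overlap (2.54 ± 0.69, adjusted p = 0.39, edgeR, and 0.0418 by DESeq2). ttr-39 averaged 5.98 ± 3.61 CPM at 15 C and 1.76 ± 0.31 CPM at 20 C (1.76 ± 0.57, adjusted p = 0.39). The members of high level overlapped between the groups. ttr-15 averaged 1140 ± 935 CPM at 15 C and 2980 ± 3520 CPM at 20 C (-1.39, adjusted p = 0.499). Without letter E of 20 C its mean there was 960 ± 467 CPM (n = 2 letters), and the log2 fold change was 0.245 (adjusted p = 0.941, edgeR), an alternative chosen after the data were seen. Without letter E of 20 C, the median of the 50 members was 0.54, with 43 positive and 7 negative. The median and signs over all genes were not taken in that fit, so this shift cannot be told from one of genes in general.

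The groups on ice overlapped in ttr-33 and ttr-52. ttr-33 averaged 24.5 ± 13.8 CPM in worms moved back to 20 C, 21.1 ± 9.20 CPM at 15 C and 20.0 ± 10.25 CPM at 20 C (SD, n = 3 letters each). ttr-52 averaged 0.651 ± 0.783 CPM in worms moved back to 20 C, 0.665 ± 0.254 CPM at 15 C and 0.606 ± 0.522 CPM at 20 C. The log2 fold changes for 15 C over 20 C were 0.08 for ttr-33 and 0.16 for ttr-52, with SEs of 0.56 and 1.13. For worms moved back over 15 C they were 0.21 (ttr-33) and -0.04 (ttr-52), and for worms moved back over 20 C 0.30 (ttr-33) and 0.12 (ttr-52), all with adjusted p of 0.888 or above (edgeR). Several of these signs turn when a letter is left out.

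Worms moved back to 20 C for 2 hours were compared with worms left at 15 C and, in a comparison that shares the moved worms, with worms kept at 20 C. Against 15 C 0 of 50 members were called, as were 0% of all genes (edgeR), with 21 positive and 29 negative log2 fold changes and a median of -0.10. Unadjusted, 2 members and 512 genes had p under 0.05, and DESeq2 called 0 members, where 0.00355% of all genes with an adjusted p were called. In 1 member, ttr-27, every sum of moved worms was above every sum at 15 C, where 2.03% of all genes were, and in 0 members below, where 1.34% were. Against 20 C 0 of 50 were called, as were 0% of all genes, with 25 positive and 25 negative and a lowest adjusted p of 0.096. At an unadjusted p under 0.05 there were 6 members and 1855 genes, and DESeq2 called 4 of 52 members with an adjusted p (ttr-9, ttr-12, ttr-21 and ttr-27), where 5.78% of all such genes were called. Without letter H of the moved worms edgeR called 3 of 52 members (ttr-9, ttr-12 and ttr-27), where 3.45% of all genes tested were called. In 5 members, ttr-12, ttr-21, ttr-27, ttr-29 and ttr-39, every sum of moved worms was above every sum at 20 C, where 11.2% of all genes were, and in 1, ttr-38, every sum was below, where 4.67% were. The members listed for groups that did not overlap were named after their values were seen.

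The members with the lowest p were ttr-12 and ttr-9 against 15 C, and ttr-12 and ttr-21 against 20 C. ttr-12 and ttr-9 were low in level and had few counts outside letters C and D of the moved worms. ttr-12 had 2.05, 5.10 and 0.487 CPM in conditioned and 2.47, 4.74 and 0.185 CPM in naive worms moved back to 20 C (letters C, D and H), 0, 0.927 and 0.345 CPM in conditioned and 0.0578, 0.620 and 0.304 CPM in naive worms at 15 C (B, G and H), and 0, 0.105 and 0.0467 CPM in conditioned and 0 CPM in all 3 naive libraries at 20 C (A, E and F). The 6 libraries at 20 C thus held 1 count in letter E and 1 in letter F, so no fold change is given. Its adjusted p against 20 C was 0.096 (edgeR) and 0.000243 by DESeq2. Against 15 C it was 1 by edgeR. ttr-9 followed the same order of letters, with 1.00 CPM in conditioned and 1.38 CPM in naive worms of letter C, 2.65 CPM in conditioned and 2.61 CPM in naive worms of letter D, and at most 0.371 CPM in every other library. Sperm markers stood out in the same libraries. Of the 8 markers 0 were at 0 over all 18 libraries together. Their sums were 71.8 CPM in conditioned and 89.4 CPM in naive worms of letter C. In letter D they were 167 CPM in conditioned and 177 CPM in naive worms, against 2.88 to 34.6 CPM in the 14 other libraries. The part of sperm RNA in the levels of ttr-12 and ttr-9 was not tested.

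**Figure D5:**
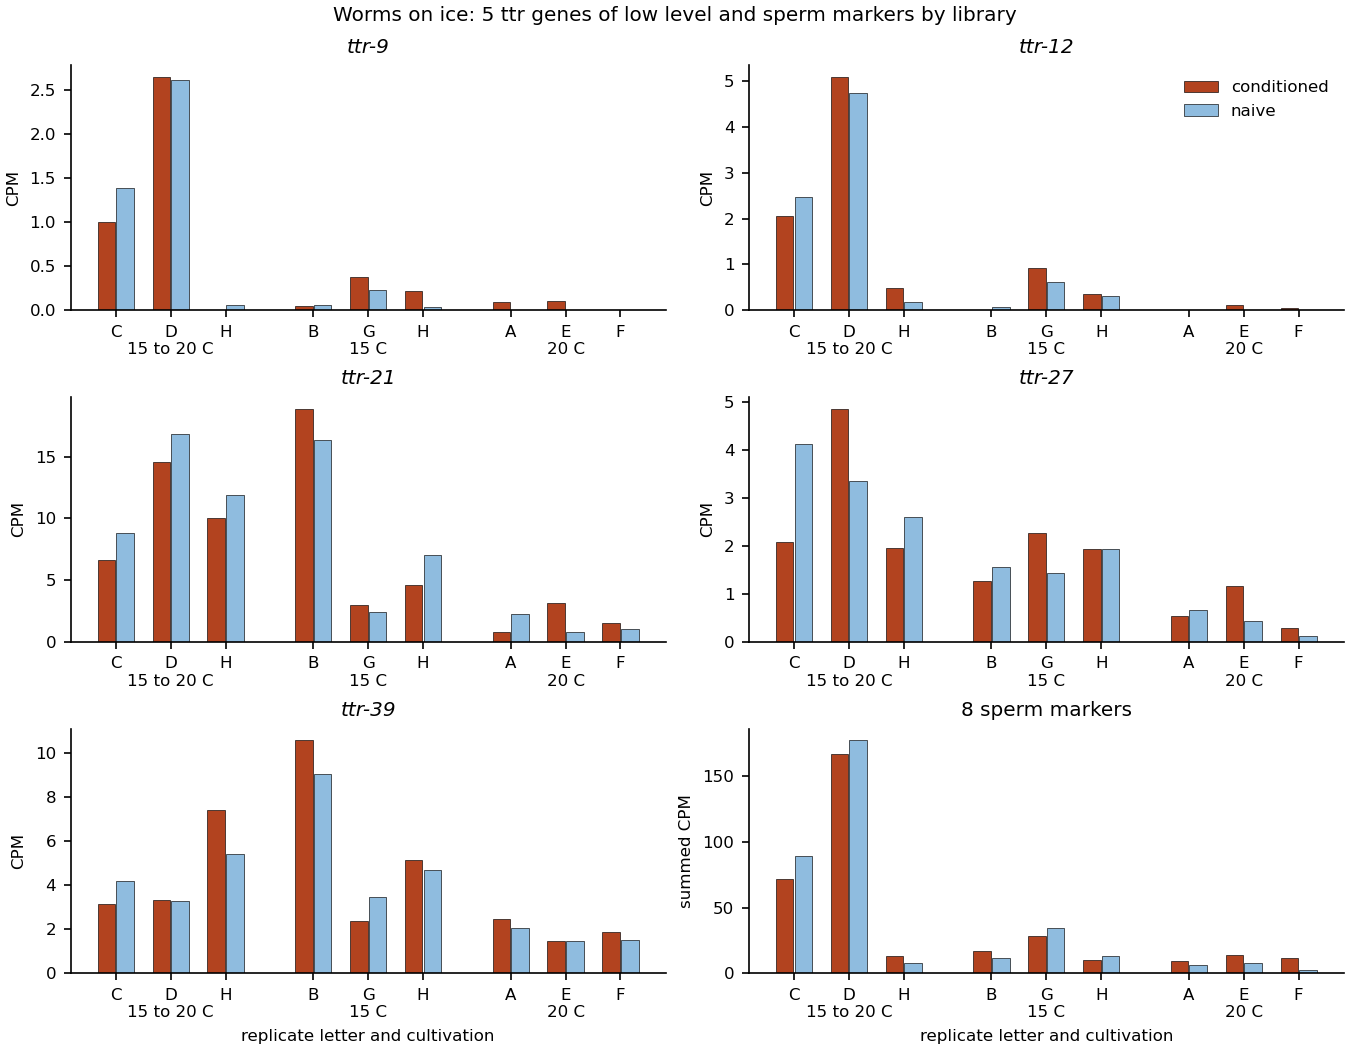
CPM of 5 low-level ttr genes and summed CPM of 8 sperm markers in each library on ice, by cultivation and replicate letter, conditioned beside naive. ttr-9, ttr-12 and the sperm markers are highest in letters C and D of worms moved back to 20 C, while ttr-21 is also high in letter B at 15 C.

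ttr-21 was spread differently. It had 6.60, 14.5 and 10.0 CPM in conditioned and 8.84, 16.8 and 11.9 CPM in naive worms moved back (letters C, D and H), against 0.797, 3.15 and 1.54 CPM in conditioned and 2.25, 0.768 and 1.01 CPM in naive worms at 20 C (A, E and F). All 6 libraries of moved worms were above all 6 at 20 C (2.92 ± 0.70, adjusted p = 0.0985, edgeR, and 0.000887 by DESeq2). Letter H, of the lowest sperm sum among the moved worms, was at 10.0 CPM in conditioned and 11.9 CPM in naive worms for this gene. Letter D, of the highest sperm sum, was at 14.5 CPM in conditioned and 16.8 CPM in naive worms. The part of sperm RNA in the level of ttr-21 was not tested. ttr-27 averaged 3.17 ± 0.999 CPM in moved worms and 0.507 ± 0.287 CPM at 20 C (SD, n = 3 letters each), with groups that did not overlap (2.66 ± 0.65, adjusted p = 0.0985). It lies on chromosome V, bases 12903550 to 12904098, next to ttr-28, and was named after its values were seen. In the lithium experiment ttr-12, ttr-9, ttr-21 and ttr-27 were too low to be tested.

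Butanone-conditioned worms were compared with naive worms over the 3 temperatures, in 18 libraries. Of the 49 members tested 0 were called, as were 0% of all 14864 genes (edgeR). There were 22 positive and 27 negative log2 fold changes with a median of -0.03. At an unadjusted p under 0.05 there were 0 members and 32 genes, and DESeq2 called 0 members. These fits did not pair the conditioned and naive libraries of a letter. With a block for each letter edgeR also called 0 members and 0 genes. ttr-15 averaged 2010 ± 3220 CPM in conditioned and 1360 ± 1130 CPM in naive worms (SD, n = 9 libraries each). Without letter E, left out after the data were seen, it averaged 958 ± 592 CPM in conditioned and 1040 ± 602 CPM in naive worms (n = 8 each). ttr-33 averaged 23.4 ± 13 CPM in conditioned and 20.7 ± 9.04 CPM in naive worms (0.18, adjusted p = 1), and ttr-52 0.762 ± 0.653 CPM in conditioned and 0.556 ± 0.458 CPM in naive worms (0.48, adjusted p = 1). The lowest p belonged to ttr-9 and ttr-12, at adjusted p = 1 for each.

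Within letters the difference between conditioned and naive worms went both ways. At 20 C 40 of 48 members were higher in conditioned worms in letter A (median log2 difference 0.20) and 43 of 49 in letter E (0.51), but 14 of 47 in letter F (-0.47). In letter F the germline sum was 11900 CPM in conditioned and 4020 CPM in naive worms. At 15 C 11 of 49 members were higher in conditioned worms in letter B, 26 of 49 in letter G and 8 of 49 in letter H. In worms moved back to 20 C it was 14 of 49 in letter C, 11 of 49 in letter D and 14 of 49 in letter H. The 9 letters thus differed in direction. Each letter sets 1 library against 1, and the share of all genes higher in conditioned worms was not counted. These counts therefore do not show a trait particular to the family.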

How the data were processed

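The deposited values were raw counts per gene, 1 table for each experiment. The authors' tools, per the submitters' processing notes, included HISAT2 and HTSeq beside cutadapt, FastQC and DESeq2, and the build was ce11. Per the labels, lithium libraries were directional, and ice libraries came from SMART-Seq HT or v4 cDNA with Nextera XT; which library had which kit, and the strand setting of counting, are not given in the sources used here. Symbols, lengths and coordinates come from Ensembl release 115. The members, the named-gene rule and the gene lists were chosen with earlier results of these data known.

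The counts went into edgeR 4.0.16, run under R 4.3.3 with limma 3.58.1, with TMM scaling, filterByExpr and the robust quasi-likelihood test, two-sided, adjusted by Benjamini-Hochberg over all genes tested at 0.05: 12 lithium libraries in 4 groups (12392 genes, coefficient of variation 0.294), 18 ice libraries in 6 groups (14864, 0.66), and for temperature 9 letter sums in 3 groups (15412, 0.645). DESeq2 1.42.0, other scaling, no filter, replicate blocks, 2-group fits and left-out replicates were alternatives. SDs are between libraries or letters. On ice, conditioned and naive libraries of a letter are paired in the labels: the correlation of their residuals was 0.471 to 0.897 in 9 of 9 pairs. The series calls the ice replicates biological; nothing states this of the lithium replicates, so their p-values measure the spread between these samples, which may be technical. Members named in a comparison are ttr-52 and ttr-33, up to 8 called per direction with the largest change and at least 10 CPM (all where 5 or fewer were called, the 2 of lowest p where none was), and the 5 of highest CPM per kilobase; others are said to be named after their values were seen. No sequences were used here.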

Additional observations from a re-analysis of the deposited data

How the results depend on the processing

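The direction of the main calls did not turn in any alternative run: the 8 members lower with lithium at 20 C and the 20 lower at 15 C on plain agar stayed negative in each. All of them were called on these libraries and had groups that did not overlap. A left-out library could hardly turn their sign, so the unchanged signs are no further support. The number of members called depended on the fit. With lithium at 20 C it was 0 when only the 2 groups compared were fitted and 0 to 11 with a replicate left out. At 15 C on plain agar it was 0 when only the 2 groups were fitted and 0 to 26 with a replicate left out. With lithium at 15 C 1 member was called with only the 2 groups fitted and 3 by DESeq2. At 15 C under lithium DESeq2 called 2. At 15 C against 20 C on ice 4 were called without the low-count filter and 1 by DESeq2, and for worms moved back against 20 C 4 without the filter, 4 by DESeq2 and 0 to 3 with a letter left out. The cause was not tested. Calls over all genes also moved, with lithium at 20 C 1516, against 984 without the filter, 2574 by DESeq2 and 0 in the 2-group fit. At 15 C on plain agar it was 1235, against 711, 2963 and 0 in the same order. With a replicate left out the range was 5 to 2855 with lithium at 20 C and 0 to 2828 at 15 C on plain agar. With lithium at 15 C 264 genes were called in the 2-group fit and 388 by DESeq2, against 48 in the main fit. At 15 C under lithium DESeq2 called 83 genes. For worms moved back against 20 C, 0 to 554 genes were called with a letter left out. On ice 0 genes were called at 15 C against 20 C, against 972 without the filter and 184 by DESeq2, and for worms moved back 0 against 20 C, against 1320 and 984, and 0 against 15 C, against 284 and 1.

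Signs of uncalled members turned in some cases. On ice ttr-33 at 15 C over 20 C was -0.022 under DESeq2's size factors and -0.018 by DESeq2, and ttr-15 was 0.245 without letter E of 20 C, an alternative added after the data were seen. ttr-52 in moved worms over 15 C was 0.033 under DESeq2's size factors, 0.137 in naive libraries alone and 0.037 by DESeq2. With a library or letter left out, ttr-51 with lithium at 20 C ran from -0.543 to 0.008 (0.008 without replicate 2 of plain agar), and at 15 C over 20 C under lithium ttr-33 ran from -0.23 to 0.109 and ttr-15 from -0.346 to 0.05. On ice the ranges were, for ttr-52, -0.354 to 1.028 (15 C over 20 C), -1.665 to 0.59 (moved over 15 C), -1.497 to 0.99 (moved over 20 C) and -0.032 to 1.039 (training). For ttr-33 they were -0.161 to 0.58, -0.355 to 0.574, -0.265 to 0.793 and -0.062 to 0.334 in the same order.

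With a replicate block 20 members were called at 15 C on plain agar, 19 of them among the 20 called without it. With lithium at 20 C 9 were called with the block, with all 8 among them. Over all genes the block gave 1252 calls at 15 C on plain agar and 1479 with lithium at 20 C. The letter block called 0 for training. Lithium-experiment replicates share only a number: residuals correlated at -0.316 to 0.346, 13 of 18 pairs were above 0.1, and the best match of 7 of 12 libraries had the same number. For temperature on ice no block was fitted, since those groups share only letter H. The low-count filter left out 16 members in the lithium experiment, at no more than 1.63 CPM in any library.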
